A study of Homo sapiens with 24 samples.

Results

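The comparison described here is the difference between a drug effect and a knockdown effect on transcript levels in LNCaP cells, an androgen-sensitive line derived from a human prostate cancer metastasis. For each gene the effect of ST045849 against its vehicle was taken, the effect of an siRNA against OGT (siOGT) against a scrambled siRNA was subtracted, each within its own time, and the result was averaged over 12 and 24 hours. All 24 of the 24 arrays of the series enter it. Cells were plated onto vehicle, ST045849, scrambled siRNA or siOGT and collected at 12 or 24 hours, with 3 arrays for each of the 8 groups, which the submitters call biological replicates. No genotype differed between the groups. In the sources used here neither the dose of the compound nor the sequences of the siRNAs are given, and 1 cell line, 1 compound and 1 siRNA label stand behind every value. Where nothing more says that replicates came from separate cultures, the p-values measure the spread between these arrays.

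O-GlcNAc transferase (OGT) places a single N-acetylglucosamine sugar on serines and threonines of proteins in the nucleus and cytosol, and O-GlcNAcase (OGA) removes it. An inhibitor blocks the activity of the enzyme while the protein and its messenger RNA are still present, whereas an siRNA directs the destruction of the messenger RNA, so that existing protein must first decay. The integrated stress response, which comes up below, is a programme in which the transcription factor ATF4 switches on genes of amino acid supply when translation initiation is restrained. A compound and an siRNA against the same enzyme can be compared gene by gene to see which transcripts follow both.

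The arrays had median raw intensities of 102 to 126 and detected 13993 to 16246 of 47323 probes. Arrays of one group correlated at 0.987 to 0.993. Of 13 prostate luminal markers on the array 11 were detected on all 24 arrays, whereas 13 of 17 basal, stromal and blood markers and 6 of 10 neuroendocrine markers were detected on none. The other 4 basal, stromal and blood markers (VIM, ACTA2, VWF and CD68) were detected on all 24 arrays. So were 3 neuroendocrine markers (ENO2, SYT4 and DDC), with DDC at a median level of 11.8. The mean luminal level over the array's 13 markers ran from 8.47 to 8.66 with ST045849, and from 8.63 to 8.91 in the other treatments. The mean level of the basal, stromal and blood markers ran from 5.24 to 5.47 over all treatments. On the first principal component (34.2% of variance) the arrays of each treatment fell into a first set (12 hours replicate 3, 24 hours replicates 1 and 3) and a second set (the other arrays). These sets come from the values and are not named by any label. Each treatment has 3 arrays of each set, so the difference over both times is balanced over them, but a comparison of 12 with 24 hours is not. Of the 107 genes with a called difference among those fixed by the naming rule given below, 99 were also called within the first set and 38 within the second. All 107 had one direction in both. These genes were chosen on the same arrays. For those chosen by one sign in all 6 differences by time and replicate number, the direction within each set was fixed by the choice.

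Many more genes responded to ST045849 than to the siRNA. With limma and an adjusted p under 0.05 over all 10345 genes, the difference of effects was higher for 1215 genes (11.7%) and lower for 943 (9.12%), or 2158 together (20.9%), and 3511 differed at an unadjusted p under 0.05 (33.9%). A higher difference means a gene more raised, or less lowered, by the compound than by the siRNA. The compound itself raised 1832 genes (17.7%) and lowered 1524 (14.7%), while siOGT raised 5 (0.0483%) and lowered 15 (0.145%). At an unadjusted p under 0.05 the siOGT effect was called for 1369 genes, or 13.2%. The SD over genes was 0.31 for the log2 effect of the compound and 0.15 for that of the siRNA, with the same median SE of 0.096. Quantile normalization sets the split of higher and lower genes in part: with median scaling in its place the median of all genes' differences moved by -0.18, and 319 genes were higher and 1564 lower. The lists below keep to quantile normalization and are read against the median of all genes, which was 0.023. Their counts are read against the 11.7% of all genes called higher and the 9.12% called lower. Under median scaling the medians of the O-GlcNAc, unfolded protein response, glucose and hypoxia, lysosome, p53, interferon and neuroendocrine lists changed sign, and those of the others did not.

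**Figure D1:**
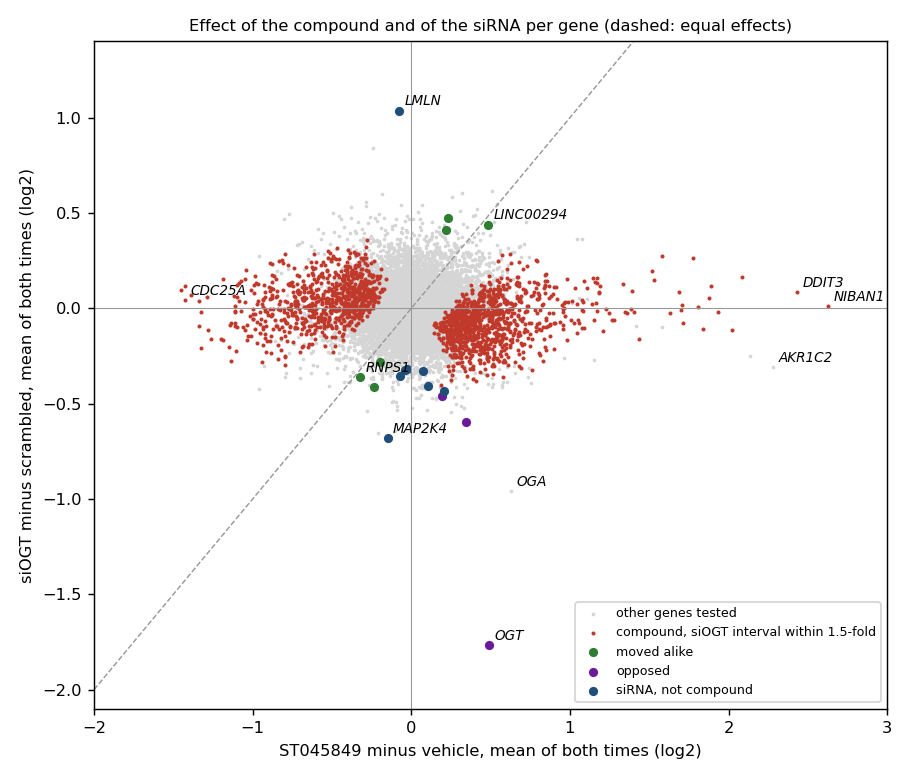
Each point is a gene, with the log2 effect of ST045849 on the horizontal axis and that of siOGT on the vertical axis, both averaged over 12 and 24 hours, and a dashed line where the effects are equal. Red points are the genes of the compound and not of the siRNA, and green, purple and blue points are the genes that moved alike, moved in opposite directions or moved with the siRNA alone. The points spread along the horizontal axis (SD over genes 0.31) more than along the vertical (SD 0.15), and OGT lies far below the others with siOGT at -1.77.

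OGT, the target of both agents, had the largest siOGT effect of the genes tested and moved in opposite directions. Its log2 level ran from 8.78 to 9.17 with vehicle (median 8.99, 6 arrays over both times) and from 9.34 to 9.60 with ST045849 (median 9.42). With the scrambled siRNA it ran from 8.61 to 9.10 (median 8.96) and with siOGT from 6.60 to 7.82 (median 7.04). The siOGT arrays lay below all others, and the ST045849 arrays lay above all others. The difference of effects was 2.26 ± 0.23 (SE; limma adjusted p = 2.43e-06), made of a rise of 0.49 with the compound (adjusted p = 0.027) and a fall with siOGT (-1.77, adjusted p = 3.77e-06). All 6 differences by time and replicate number were positive, from 1.14 to 2.96 (exact sign-flip test, two-sided p = 0.03125, the smallest 6 differences can give). Replicate numbers are not a pairing in the design. Because treated arrays overlapped with no controls, any pairing would give this p, for OGA below as well. The differences lay higher in the first array set (2.89, adjusted p = 1.6e-06) than in the second (1.62, adjusted p = 0.00371), and a test of that gap was not made. A second OGT probe gave a difference of 2.03.

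OGA, which encodes the opposing enzyme, had a difference of 1.59 ± 0.30 (adjusted p = 0.00101). Its level ran from 9.95 to 10.30 with vehicle, from 10.55 to 10.89 with ST045849, from 9.99 to 10.11 with scrambled siRNA and from 8.35 to 9.83 with siOGT, with medians of 10.11, 10.78, 10.08 and 9.14. As for OGT, the 6 siOGT arrays lay below and the 6 ST045849 arrays above all the others. OGA rose with the compound (0.63, adjusted p = 0.0274), and its siOGT effect was -0.96 and missed the threshold over all arrays (adjusted p = 0.0698). Within the first array set the siOGT effect was -1.61 (adjusted p = 5.67e-06) and within the second -0.31 (adjusted p = 0.933). With siOGT the 3 arrays of the second set stood at 9.72 to 9.83 and the 3 of the first set at 8.35 to 8.56. The 6 differences ran from 0.67 to 2.50 (exact sign-flip p = 0.03125), at 2.39 in the first set and 0.78 in the second, both called within the set (adjusted p = 2.21e-06 and 0.0152).

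Of 12 tested genes of O-GlcNAc cycling and hexosamine synthesis, 3 had a higher difference (25%) and 1 a lower one (8.33%). The shares of all genes were 11.7% and 9.12%. The 3 higher genes were OGT, OGA and GFPT1. GFPT1, the first enzyme of the hexosamine pathway that makes the sugar donor, rose with ST045849 (0.76, adjusted p = 6.40e-05) with a siOGT effect of 0.064, and its difference was 0.69 ± 0.17 (adjusted p = 0.00635). HCFC1, a chromatin cofactor that OGT modifies and cleaves, fell with ST045849 (-0.42, adjusted p = 0.00033) with a siOGT effect of 0.013, and its difference was -0.43 ± 0.11 (adjusted p = 0.00847). The median difference of the 12 genes was 0.083.

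**Figure D2:**
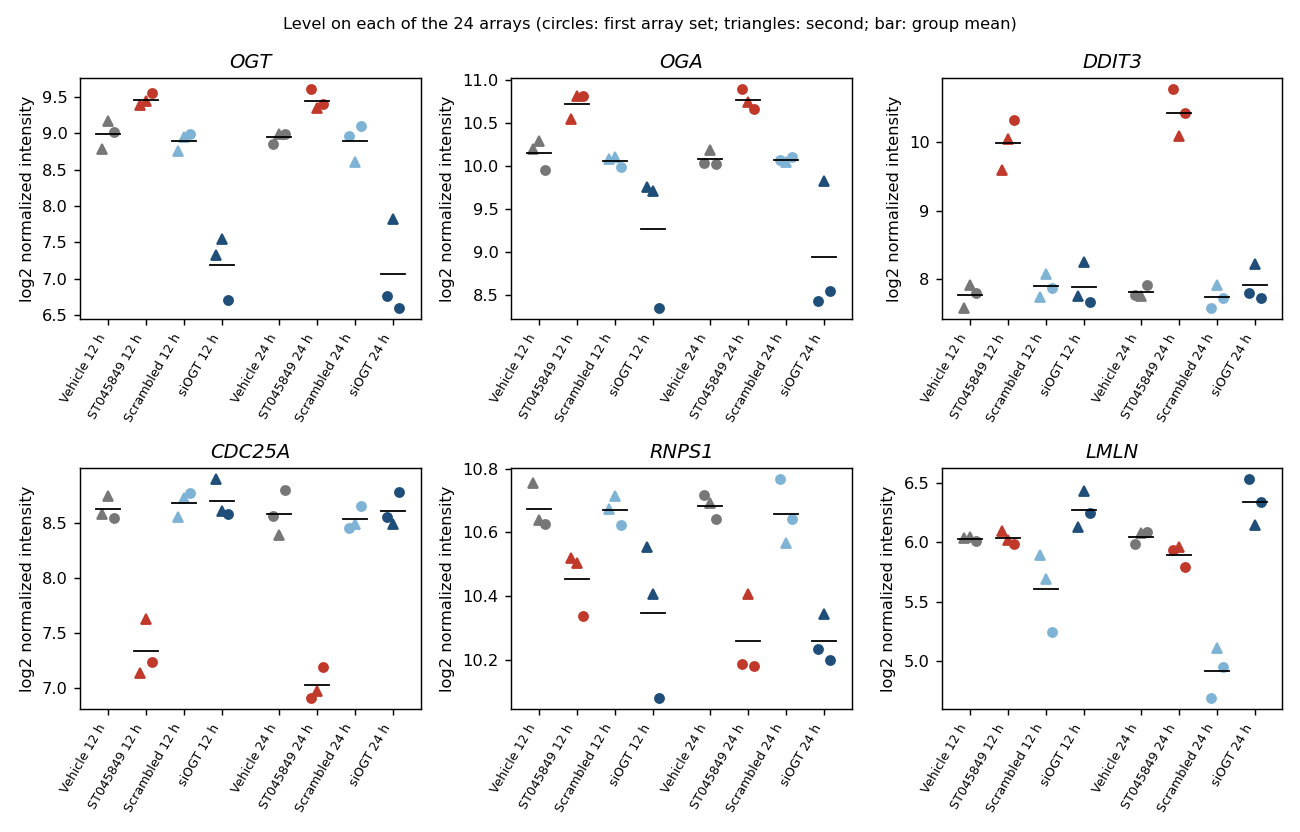
Log2 normalized intensity on each of the 24 arrays for 6 genes, by treatment and time, with circles for arrays of the first array set, triangles for the second and a bar for the group mean of 3. OGT and OGA are low with siOGT and high with ST045849, DDIT3 and CDC25A move with ST045849 alone, RNPS1 is low with both agents, and LMLN is low with the scrambled siRNA.

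Genes of the compound and not of the siRNA were taken as those with the difference called, the ST045849 effect called with the same sign, and the 95% interval of the siOGT effect within 1.5-fold either way, since a missed threshold alone does not show that the siRNA had no effect. There were 1835 of them (17.7%), of which 1029 were higher with the compound (9.95%) and 806 lower (7.79%). Of the other genes among the 3356 called with the compound (32.4%), 62 had a called difference but a wider siOGT interval, 3 were called with siOGT in the opposite direction with a wide interval, and for 1456 the difference was not called. A further 258 genes had a called difference without a called compound effect, and in 250 of them neither effect was called. Among the 1835 genes 721 differed by 1.5-fold or more and 119 by 2-fold or more, of which 67 were higher and 52 lower. In 1266 of them all 6 differences by time and replicate number had one sign, against 18.9% of all genes, a share that the choice of the genes on these arrays raises. The siOGT interval lay within 1.5-fold for 95.2% of all genes tested, so that this condition removed few. For 248 of the 1835 genes (13.5%) the siOGT interval left out 0, against 13.2% of all genes. ZFR was 1 gene of the class whose siOGT effect was itself called, in the opposite direction.

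The share of the genes called with the compound that also moved the same way with the siRNA was near that of all genes. Of the 1832 genes raised by ST045849, 108 were higher with siOGT at an unadjusted p under 0.05 (5.9%), near the 5.87% of all genes, and 171 were lower (9.33%, against 7.37%). Of the 1524 genes lowered by ST045849, 118 were lower with siOGT (7.74%, against 7.37%) and 84 higher (5.51%, against 5.87%). Across the 10345 genes the correlation of both effects was -0.038, a description over genes that share arrays and are not replicates.

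The 12 largest positive differences with one sign in all 6 were those of OGT and of the genes described next. DDIT3, the stress transcription factor CHOP, stood between 7.57 and 7.92 with vehicle, 9.60 and 10.78 with ST045849, 7.58 and 8.06 with scrambled siRNA, and 7.66 and 8.25 with siOGT. The ST045849 arrays overlapped with no others, and the siOGT and scrambled arrays covered one range. Its difference was 2.35 ± 0.19 (adjusted p = 9.41e-08), with a siOGT effect of 0.085 (95% interval -0.20 to 0.37). TRIB3, a pseudokinase that ATF4 induces, differed by 1.95 ± 0.11 (adjusted p = 5.70e-10), with 6 differences between 1.71 and 2.33 and a siOGT effect of -0.021. NIBAN1, a stress-induced regulator of translation, differed by 2.62 ± 0.26 (adjusted p = 1.66e-06). It was detected on none of the vehicle arrays, on all 6 with ST045849, where it was at least 4.73-fold higher, and on 3 of 6 in each siRNA treatment, where the levels ran from 5.06 to 5.64. Without background correction the fitted difference of NIBAN1 was 1.16.

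CHAC1, which degrades glutathione, was likewise undetected with vehicle and with scrambled siRNA and detected on 1 siOGT array. It was at least 2.74-fold higher with ST045849 than with vehicle. Its fitted difference of 1.92 ± 0.20 (adjusted p = 3.34e-06) has 3 of its 4 treatments at or near background and gives no exact size. Without background correction it was 0.72. SLC6A9, a glycine transporter, differed by 2.13 ± 0.17, DDIT4, an inhibitor of mTORC1, by 1.82 ± 0.14 and CAPN5, a calpain protease, by 1.94 ± 0.17. SERPINA3, a secreted protease inhibitor, differed by 1.80 ± 0.28 and the antisense transcript VLDLR-AS1 by 1.79 ± 0.20. Strand cannot be read from the probe here for VLDLR-AS1, and both genes were detected on at most 2 of 6 arrays in each of the other treatments. Without background correction their fitted differences were 0.71 for SERPINA3 and 0.69 for VLDLR-AS1. In all, 30 of the 107 named genes had a difference smaller by over 1.5 times in that setting, and all 30 kept their call. AKR1C2 and AKR1C4, reductases of steroid metabolism, differed by 2.59 ± 0.31 and 2.38 ± 0.37. They are paralogs whose probes were not separated by sequence, and their siOGT intervals, down to -0.77 and -0.79, were wider than 1.5-fold.

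The 12 largest negative differences with one sign in all 6 are described next. CDC25A, a phosphatase that switches on the kinases of S phase entry, stood between 8.40 and 8.80 with vehicle, 6.91 and 7.63 with ST045849, 8.46 and 8.78 with scrambled siRNA and 8.49 and 8.90 with siOGT. The ST045849 arrays lay below all 18 others, which overlapped. Its difference was -1.47 ± 0.13 (adjusted p = 3.38e-07), with a siOGT effect of 0.044 (95% interval -0.15 to 0.24). DTL, the substrate receptor of a ubiquitin ligase that acts during replication, differed by -1.54 ± 0.17, and its 6 differences ran from -2.13 to -0.78. DDIAS, a suppressor of apoptosis after DNA damage, differed by -1.55 ± 0.21. MCM10, a replication factor, and MCM4, of the replicative helicase, differed by -1.46 ± 0.14 and -1.37 ± 0.15, and the histone chaperone gene ASF1B by -1.25 ± 0.18. UHRF1, which maintains DNA methylation, differed by -1.30 ± 0.14, and a second, dimmer probe gave -0.71.

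ATAD2, a chromatin ATPase (-1.35 ± 0.23), PSMC3IP, a recombination factor (-1.24 ± 0.14), and the mitotic genes NDC80 (-1.34 ± 0.27), ANLN (-1.22 ± 0.24) and SGO2 (-1.23 ± 0.30) completed the 12 largest negative differences with one sign in all 6. The mitotic genes differed between the array sets. NDC80 stood at -2.07 in the first set and -0.61 in the second (adjusted p = 0.000104 and 0.129), and ANLN at -1.88 and -0.56 (adjusted p = 2.56e-05 and 0.0777). SGO2, which protects sister chromatid cohesion, was no member of the class, since its siOGT interval reached 0.71.

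**Figure D3:**
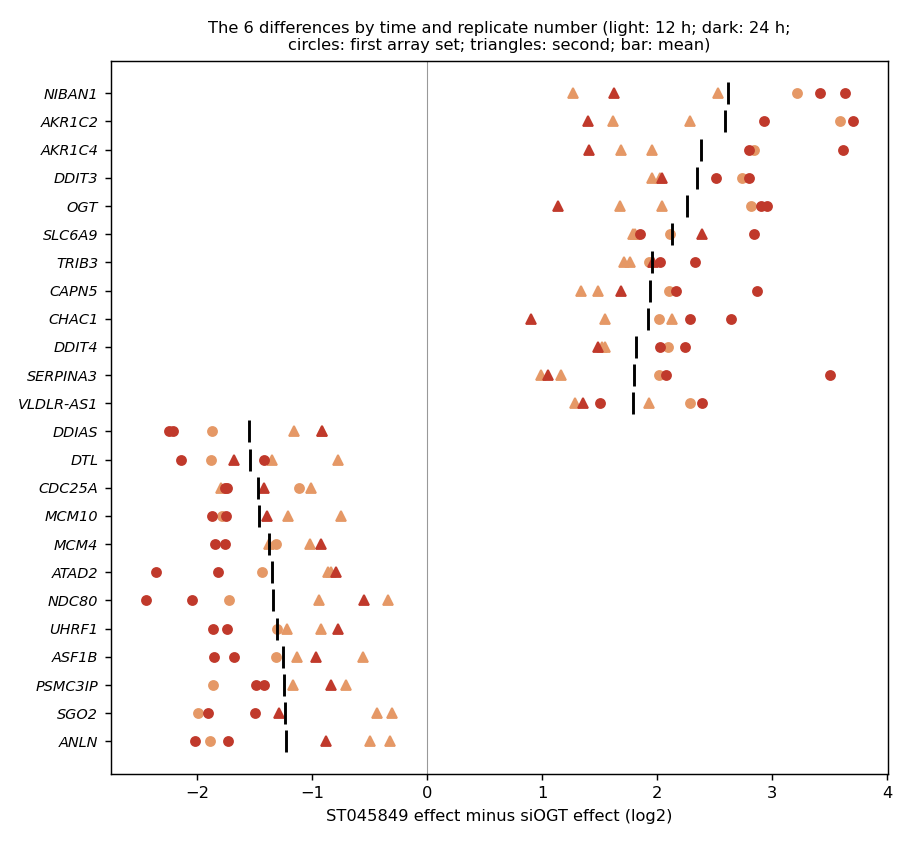
The 6 differences of effects by time and replicate number for the 12 largest positive and 12 largest negative differences with one sign in all 6, on the log2 scale, with the mean as a bar, light points for 12 hours, dark points for 24 hours, circles for the first array set and triangles for the second. TRIB3 stays within 1.71 to 2.33 in all 6, whereas NDC80 runs from -2.44 to -0.34, with the circles farther from 0.

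Of the gene lists, that of the ATF4 and amino acid response differed in the most members upward. The difference was called higher in 35 of its 37 tested members (94.6%, against 11.7% of all genes) and lower in 0, with a median of 1.10 (ST045849 1.17, siOGT 0.024). All 37 rose with the compound, and 0 were called with siOGT. The 2 members without a called difference were EIF4EBP1, a repressor of cap-dependent translation (0.22), and PSPH of serine synthesis (0.48), named after their values were seen. PSAT1, a serine synthesis enzyme, had levels of 11.34 to 11.57 with vehicle, 12.52 to 12.93 with ST045849, 11.51 to 11.72 with scrambled siRNA and 11.44 to 11.68 with siOGT, and differed by 1.32 ± 0.10 (adjusted p = 8.44e-08). The median of the list lay between 0.90 and 1.29 in each of the 6 differences. Of 18 cytosolic tRNA synthetases 9 had a higher difference (50%, against 11.7% of all genes) and 0 a lower one, with a median of 0.36. The compound effect was called higher in 11 of the 18 and lower in 1. Among the 9 were GARS1, which charges glycine (0.96 ± 0.12), SARS1, which charges serine (0.94 ± 0.15), EPRS1, which charges glutamate and proline (0.63 ± 0.084), and YARS1, which charges tyrosine (0.53 ± 0.082).

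Of 47 tested genes of DNA replication and G1/S, 39 had a lower difference (83%, against 9.12% of all genes) and 0 a higher one, with a median of -0.88 (ST045849 -0.92, siOGT -0.057). No member was called with siOGT. Of 53 genes of G2/M and mitosis 30 were lower (56.6%) and 0 higher, with a median of -0.71 (ST045849 -0.72, siOGT -0.033). MAD2L1 of the spindle checkpoint differed by -0.99 ± 0.17 (adjusted p = 0.000358) and the condensin gene SMC2 by -0.76 ± 0.15 (adjusted p = 0.00115), although a dim further SMC2 probe gave -0.11. The median of the G2/M list was -1.28 to -1.14 in the 3 differences of the first array set and -0.26 to -0.15 in the 3 of the second. That of the replication list was -1.19 to -1.12 and -0.65 to -0.57. In whole-culture RNA, fewer cells in a phase of the cycle and less transcript per cell cannot be told apart.

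**Figure D4:**
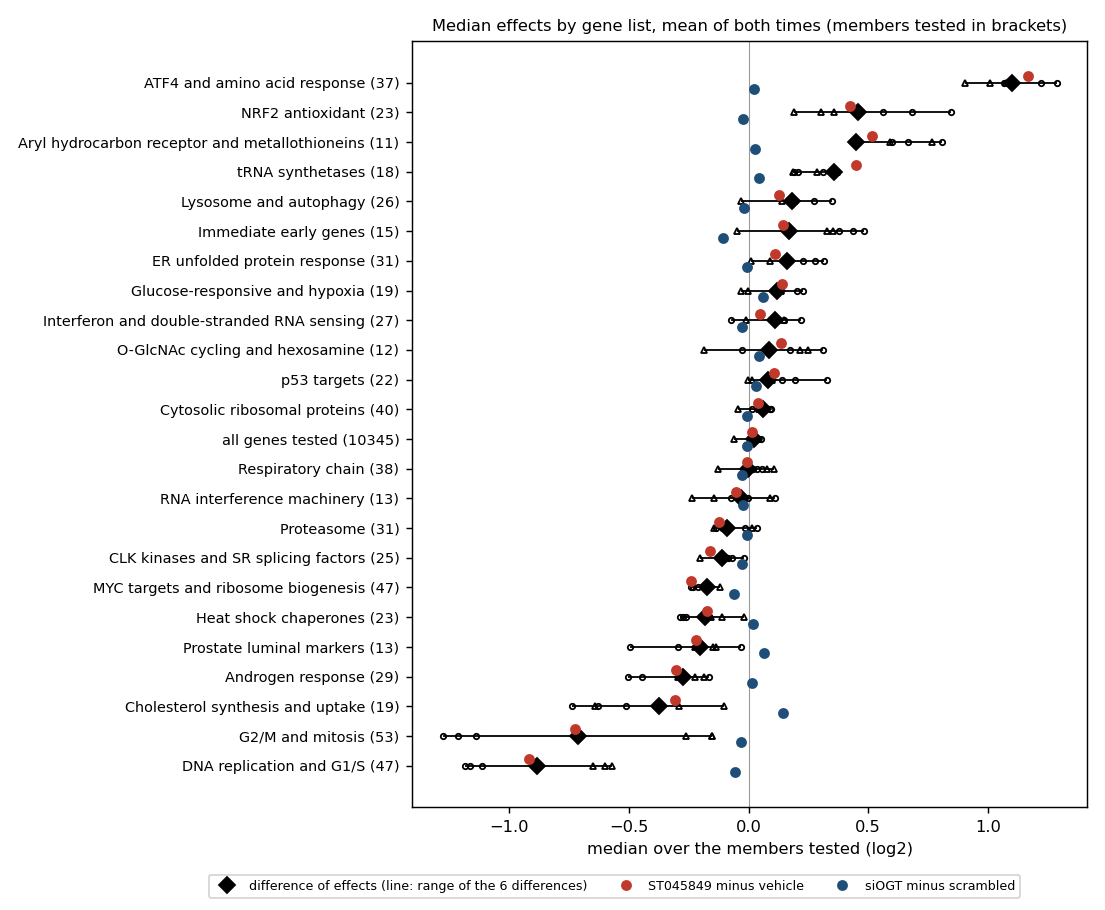
Median log2 effect over the tested members of each gene list, with a black diamond for the difference of effects, a red point for ST045849, a blue point for siOGT, and small open symbols joined by a line for the medians of the 6 differences (circles first array set, triangles second). The red and black points lie together and the blue points stay near 0 for the ATF4 list (1.17, 1.10 and 0.024) and the replication list (-0.92, -0.88 and -0.057), and the cholesterol list has its blue point at 0.15.

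Letters of a stress-response element and of E2F sites were looked for in the promoters of these genes, since both groups moved together. The letters CCAAT, an E-box, an antioxidant element and a sterol element were searched as well. Sequences came from RefSeq (GRCh38.p14, 250 bases before to 50 after the start of transcription), where 8425 of the 10345 genes had an entry. The amino acid response element was searched as TGATGNAA and E2F sites as TTTGGCGC, TTTCCCGC, TTTCGCGC or TTTGCCGC, on both strands, and no run of letters matches both. The element was found in 3.67% and E2F letters in 3.33% of all 27305 RefSeq promoters. The element was found in 1.61% of the promoters of all tested genes and in 4.07% of those of the 1029 genes higher with the compound (35 of 861). It was in 15.5% (9 of 58) of those higher by 2-fold or more. E2F letters were in 5.67% of all tested promoters, in 11.7% (78 of 668) of those of the genes lower with the compound and in 31.0% (13 of 42) of those lower by 2-fold or more. These shares are descriptions of genes chosen by their response, and a match is not a bound site. In the replication list 23 of 41 promoters held E2F letters, in the ATF4 list 5 of 31 held the element, and in the tRNA synthetase list 5 of 15 did. The letters CCAAT were in 38.3% of all tested promoters, in 31 of 44 of the G2/M list and in larger shares of the unfolded protein response list (24 of 29), the cholesterol list (14 of 17) and the RNA interference list (9 of 12). The E-box CACGTG was in 10.7% of all tested promoters, in 14 of 41 of the MYC target list, in 6 of 21 of the lysosome list and in 11.2% of the genes lower with the compound. The antioxidant element TGACNNNGC was in 15.6% of all tested promoters and in 5 of 19 of the NRF2 list. It was in 15.5% of those higher by 2-fold or more and in 35.7% of those lower by 2-fold or more. The sterol element TCACNCCAC was in 1.07% of all tested promoters and in 1 of 17 of the cholesterol list.

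The promoters of the 3 ATF4 list members with the largest fitted differences among those with a match, and of the 3 replication list members with the largest negative ones, are shown for the position of the letters, which are in capitals. They were chosen after the values were seen. CHAC1 lies at chr15:40953221-40953520 (plus strand), SLC3A2, the heavy chain of amino acid transporters (difference 1.34), at chr11:62881449-62881748 (plus strand), and ATF3, a stress transcription factor (1.30), at chr1:212565157-212565456 (plus strand). DTL lies at chr1:212035498-212035797 (plus strand), CDC25A at chr3:48188368-48188667 (minus strand) and UHRF1 at chr19:4909251-4909550 (plus strand). Each is written 5′ to 3′ on the strand of its gene. Counted from the start of transcription, the capitals begin at -209 in CHAC1, 37 in SLC3A2 and -191 in ATF3, and at -8 in DTL, -44 in CDC25A and -14 in UHRF1.
CHAC1: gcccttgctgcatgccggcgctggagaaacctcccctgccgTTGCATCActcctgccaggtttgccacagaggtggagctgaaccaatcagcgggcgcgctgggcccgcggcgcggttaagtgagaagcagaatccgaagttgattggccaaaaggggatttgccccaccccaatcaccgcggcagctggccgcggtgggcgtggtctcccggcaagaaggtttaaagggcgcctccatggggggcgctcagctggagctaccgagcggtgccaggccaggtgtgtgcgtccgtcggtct
SLC3A2: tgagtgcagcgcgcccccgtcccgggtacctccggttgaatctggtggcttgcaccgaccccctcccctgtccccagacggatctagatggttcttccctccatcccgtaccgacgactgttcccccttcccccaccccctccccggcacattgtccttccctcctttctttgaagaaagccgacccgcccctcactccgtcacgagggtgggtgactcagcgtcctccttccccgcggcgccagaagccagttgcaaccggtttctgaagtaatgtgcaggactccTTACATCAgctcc
ATF3: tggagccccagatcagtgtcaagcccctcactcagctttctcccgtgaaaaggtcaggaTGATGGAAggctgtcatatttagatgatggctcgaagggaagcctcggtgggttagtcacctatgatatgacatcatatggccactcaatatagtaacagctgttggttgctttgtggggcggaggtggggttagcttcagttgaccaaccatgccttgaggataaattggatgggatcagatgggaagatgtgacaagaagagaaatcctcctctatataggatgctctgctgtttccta
DTL: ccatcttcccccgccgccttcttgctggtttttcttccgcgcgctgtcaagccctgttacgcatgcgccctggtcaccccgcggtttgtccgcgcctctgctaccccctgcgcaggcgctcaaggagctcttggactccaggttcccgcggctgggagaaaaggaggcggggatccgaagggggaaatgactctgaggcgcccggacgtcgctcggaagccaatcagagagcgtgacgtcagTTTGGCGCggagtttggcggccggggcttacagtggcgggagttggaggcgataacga
CDC25A: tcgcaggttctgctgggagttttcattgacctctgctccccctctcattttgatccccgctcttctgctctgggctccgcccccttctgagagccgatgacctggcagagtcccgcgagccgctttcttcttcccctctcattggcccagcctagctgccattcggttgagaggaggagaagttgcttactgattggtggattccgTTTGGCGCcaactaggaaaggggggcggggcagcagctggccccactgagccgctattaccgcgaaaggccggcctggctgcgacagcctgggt
UHRF1: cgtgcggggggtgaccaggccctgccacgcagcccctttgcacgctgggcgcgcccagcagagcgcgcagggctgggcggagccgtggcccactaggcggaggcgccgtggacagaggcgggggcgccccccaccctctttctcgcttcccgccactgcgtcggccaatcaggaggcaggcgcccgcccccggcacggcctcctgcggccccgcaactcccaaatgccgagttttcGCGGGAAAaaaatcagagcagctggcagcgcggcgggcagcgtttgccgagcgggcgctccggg

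Other stress lists differed in part of their members. Of 23 NRF2 antioxidant genes 13 were higher (56.5%) and 1 lower (4.35%), against 11.7% and 9.12% of all genes, with a median of 0.46. SLC7A11, which imports cystine and belongs to the ATF4 list as well, had levels of 7.05 to 7.67 with vehicle, 8.56 to 9.51 with ST045849, 6.99 to 7.66 with scrambled siRNA and 6.81 to 7.45 with siOGT. Its difference was 1.71 ± 0.23 (adjusted p = 5.15e-05). The heme-degrading enzyme gene HMOX1 differed by 1.5 ± 0.34 (adjusted p = 0.00392) and AKR1C3, of steroid metabolism, by 1.6 ± 0.24. The AKR1C3 probe was not separated by sequence from that of AKR1C2, which is in the list as well. AKR1C3 was detected on 4 of 6 vehicle, 5 of 6 scrambled and 4 of 6 siOGT arrays. Within the second array set its difference was 1.13 and was not called (limma adjusted p = 0.0585). The NRF2 median was larger in the first array set (0.56 to 0.85 in its 3 differences) than in the second (0.19 to 0.36). Of 11 genes of the aryl hydrocarbon receptor and metallothioneins 3 were higher (27.3%) and 0 lower. Among them were the metal-binding MT1E (1.23 ± 0.30, adjusted p = 0.00694) and the quinone reductase NQO1 (0.45 ± 0.12).

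Of 31 genes of the ER unfolded protein response 8 were higher (25.8%) and 1 lower (3.23%), against 11.7% and 9.12% of all genes. Their median was 0.16. XBP1, its transcription factor, had levels of 11.04 to 11.25 with vehicle and 11.67 to 11.99 with ST045849, 11.10 to 11.27 with scrambled siRNA, and with siOGT a median of 11.15 and a highest value of 11.34, so that the ST045849 arrays lay above all others. The 6 differences of XBP1 ran from 0.70 to 0.81, with a mean of 0.74 ± 0.096 (adjusted p = 3.21e-05). The co-chaperone DNAJB9 differed by 0.92 ± 0.14, ATF6, a sensor of the pathway, by 0.60 ± 0.11 and SYVN1, a ubiquitin ligase of the ER, by 0.54 ± 0.12. HSPA5, the main ER chaperone, rose with ST045849 (0.34, adjusted p = 0.00713), but with a siOGT effect of 0.23 (adjusted p = 0.292) its difference was 0.11 ± 0.13 and was not called (adjusted p = 0.581). Of 23 heat shock chaperones and cofactors 1 was higher (4.35%) and 5 lower (21.7%). CHORDC1, an HSP90 cofactor, differed by -0.71 ± 0.15, STIP1, which joins HSP70 and HSP90, by -0.48 ± 0.11 and HSP90AA1 by -0.37 ± 0.097, while the mitochondrial chaperone HSPA9 differed by 0.49 ± 0.12.

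Of 15 immediate early genes 6 were higher (40%) and 0 lower, against 11.7% and 9.12% of all genes. Among them were JUN (0.96 ± 0.12, adjusted p = 2.35e-05), the zinc finger gene KLF6 (0.75 ± 0.14), JUND (0.41 ± 0.090) and the phosphatase DUSP1 (0.72 ± 0.19). JUN stood at 9.37 to 9.80 with ST045849, above the 8.43 to 9.09 of all other arrays. Of 19 glucose-responsive and hypoxia genes 4 were higher (21.1%) and 2 lower (10.5%), the latter near the share of all genes. TXNIP, an inhibitor of glucose uptake, differed by 0.76 ± 0.11, the arrestin-like ARRDC3 by 0.93 ± 0.14 and VEGFA, an angiogenic factor, by 1.38 ± 0.19, and P4HA1, a collagen hydroxylase, by -0.60 ± 0.10. Of 26 lysosome and autophagy genes 6 were higher (23.1%) and 0 lower. Among them were GABARAPL1 (0.88 ± 0.14), MAP1LC3B (0.74 ± 0.15), ATG7 (0.60 ± 0.095) and ULK1 (0.55 ± 0.13), which serve the growth of the autophagosome. By its main probe ULK1 was called with neither agent, at 0.24 with ST045849 (adjusted p = 0.052) and -0.31 with siOGT (adjusted p = 0.141), while a second probe with the same compound effect of 0.24 was called (adjusted p = 0.041).

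Of 29 androgen response genes 9 were lower (31%) and 1 higher (3.45%), against 9.12% and 11.7% of all genes, with a median of -0.27. KLK3, which encodes prostate-specific antigen, stood between 7.47 and 7.77 with vehicle, 6.42 and 6.90 with ST045849, 7.23 and 7.89 with scrambled siRNA and 7.40 and 8.17 with siOGT. All ST045849 arrays lay below all others. Its difference was -1.05 ± 0.18 (adjusted p = 0.000358), at -1.06 in the first array set and -1.05 in the second. TMPRSS2, an androgen-driven protease, differed by -0.91 ± 0.15, the lipid phosphatase PLPP1 by -0.55 ± 0.12 and CENPN, a centromere protein, by -0.55 ± 0.12. Of 13 luminal markers 4 were lower (30.8%) and 0 higher in the difference, while the compound effect was called lower in 4 and higher in 2. Of 4 tested basal, stromal and blood markers 1, the clotting protein gene VWF, was higher (0.91 ± 0.26, adjusted p = 0.0171). The luminal markers include KLK2 (-0.72 ± 0.18). They also count MSMB, which was detected on 0 arrays with vehicle or ST045849, on 1 with scrambled siRNA and on 4 with siOGT, so that its compound effect compares values at background and has no size.

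The series' title concerns the stability of the MYC protein, which arrays do not measure, and the MYC transcript showed no called difference. Its levels ran from 11.24 to 11.45 with vehicle, 11.31 to 11.62 with ST045849, 11.27 to 11.46 with scrambled siRNA and 11.24 to 11.46 with siOGT, and all 4 ranges overlapped. The difference was 0.11 ± 0.078 (95% interval -0.052 to 0.27, adjusted p = 0.341), and a second probe gave -0.16. The compound effect on MYC was 0.12 (adjusted p = 0.105) and the siOGT effect 0.0093. Of 47 MYC targets and ribosome biogenesis genes 12 were lower and 0 higher, a share of 25.5% against 9.12% of all genes, with a median of -0.17. LDHA, the lactate dehydrogenase subunit, differed by -0.53 ± 0.093, the nucleolar factors NOP16 and NOP56 by -0.49 ± 0.088 and -0.48 ± 0.10, and PHB1, a mitochondrial scaffold protein, by -0.36 ± 0.074. CDKN1A, the cell cycle inhibitor p21, had a difference of 0.13 ± 0.21 (adjusted p = 0.696). Of 22 p53 targets 4 were higher (18.2%) and 3 lower (13.6%), against 11.7% and 9.12% of all genes. Among them were SESN2, which belongs to the ATF4 list as well (1.10 ± 0.25, and 0.39 without background correction), and GADD45A (0.56 ± 0.14). SESN2 was detected on 2 of 6 vehicle, 1 of 6 scrambled and 1 of 6 siOGT arrays, so its fitted difference gives no exact size. ZMAT3 had -0.52 ± 0.14 by its main probe, and its other 2 probes gave -0.048 (adjusted p = 0.817) and 0.20 (adjusted p = 0.266).

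Cholesterol synthesis and uptake was the list with the median siOGT effect farthest from 0. Of 19 tested genes 10 were lower (52.6%) and 1 higher (5.26%), against 9.12% and 11.7% of all genes. The median was -0.37, of which the compound gave -0.31, with 8 genes lower, and siOGT 0.15. Of the 19 genes 0 were called with siOGT by limma at the adjusted threshold, and 5 were higher with it at an unadjusted p under 0.05, against 5.87% of all genes. Only 5 of the 11 called genes were in the class of the compound and not the siRNA. That class needs a called compound effect as well as the interval condition, and the compound was called higher in 1 gene of the list and lower in 8. IDI1, an enzyme of isoprenoid synthesis, had levels of 7.84 to 8.42 with vehicle, 7.30 to 7.71 with ST045849, 8.25 to 8.57 with scrambled siRNA and 8.13 to 8.96 with siOGT. The ST045849 arrays lay below the others. IDI1 differed by -1.04 ± 0.17 (adjusted p = 0.000315), with -0.71 from the compound (adjusted p = 0.000171) and 0.34 from siOGT (adjusted p = 0.241). The sterol sensor INSIG1 differed by -0.87 ± 0.19, the synthesis enzyme DHCR7 by -0.61 ± 0.15 and ACAT2, which makes acetoacetyl-CoA, by -0.92 ± 0.22.

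Lists of ribosomal, respiratory chain and proteasome genes differed in few members. Among 40 cytosolic ribosomal proteins 2 were higher and 0 lower, among 38 respiratory chain genes 2 and 0, and among 31 proteasome genes 0 and 1, below the 11.7% and 9.12% of all genes. Of 25 CLK kinases and SR splicing factors 2 were higher (8%) and 5 lower (20%), against 11.7% and 9.12% of all genes. Among the lower was SRSF2 at -0.48 ± 0.090 (adjusted p = 0.000982). Of 27 genes of interferon and double-stranded RNA sensing 4 were higher (14.8%) and 2 lower (7.41%), near the 11.7% and 9.12% of all genes. ISG20, an exonuclease, differed by 1.11 ± 0.21, with 0.90 from the compound (adjusted p = 9.91e-05) and -0.21 from siOGT (adjusted p = 0.575), and 0 of the 27 were called with siOGT. Of 13 genes of the RNA interference machinery, 2 were higher (15.4%) and 3 lower (23.1%), against 11.7% and 9.12% of all genes. DICER1, which cuts precursor hairpins, differed by -0.60 ± 0.15 (adjusted p = 0.00736), TNRC6A, a silencing scaffold, by -0.39 ± 0.12, and DROSHA, which cuts primary transcripts, by -0.31 ± 0.11. The call of DROSHA (adjusted p = 0.0457) was lost in 16 of 24 fits with 1 array left out, without the detection filter (adjusted p = 0.0692), with the replicate block (adjusted p = 0.0527) and with all kept probes (adjusted p = 0.0518). All 3 were called with neither agent alone, and DICER1 stood at -0.24 with ST045849 and 0.36 with siOGT. XPO5, the export factor of precursor hairpins, differed by 0.54 ± 0.11 through the compound (0.50).

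Genes that moved alike were those called with both agents in one direction and not called in the difference. There were 6 (0.058%), and for all 6 the 95% interval of the difference lay within 1.5-fold. RNPS1, a splicing and exon junction factor, had levels of 10.63 to 10.76 with vehicle, 10.18 to 10.52 with ST045849, 10.57 to 10.77 with scrambled siRNA and 10.08 to 10.55 with siOGT. Both treated groups lay below both controls. It fell by 0.32 with ST045849 (adjusted p = 0.00192) and by 0.36 with siOGT (adjusted p = 0.0434), a difference of 0.038 (95% interval -0.18 to 0.25). A second, dimmer RNPS1 probe gave -0.27 with ST045849 and -0.048 with siOGT, neither called.

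LINC00294, a long noncoding RNA, rose with both agents, by 0.48 with ST045849 (adjusted p = 0.0002) and 0.44 with siOGT (adjusted p = 0.0295). Its levels were 6.56 to 6.88 with vehicle and 6.98 to 7.48 with ST045849, and 6.45 to 6.86 with scrambled siRNA and 6.99 to 7.31 with siOGT, so that treated arrays overlapped with no controls. METTL1, a tRNA methyltransferase, fell with both (-0.20 and -0.28), but its second probe was called with ST045849 alone (-0.23, siOGT -0.21, adjusted p = 0.245). PHLPP2, a phosphatase of the kinase AKT, fell with both (-0.23 and -0.41). IFT172, of ciliary transport, rose with both (0.23 and 0.47), and LRRC1, a scaffold of cell polarity, rose with both (0.22 and 0.41). IFT172 was detected on 0 of 6 scrambled arrays and 4 of 6 vehicle arrays, so its siOGT effect is a fitted value against background. Its difference was -0.24 with a 95% interval of -0.47 to -0.0093, which leaves out 0, and it was called in 1 of the fits with 1 array left out (adjusted p = 0.0468). A second, dim LRRC1 probe gave -0.012 with ST045849 and 0.27 with siOGT.

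These 6 genes rest on few arrays and on the control. With vehicle in place of scrambled siRNA, 4 of the 6 lost the siOGT call, LRRC1 (adjusted p = 0.391), METTL1 (0.185), IFT172 (0.0910) and LINC00294 (0.0656). When each of the 24 arrays was left out in turn, IFT172 and PHLPP2 stayed in the class in 18 of 24 fits, LINC00294 in 17, LRRC1 in 14, RNPS1 in 6 and METTL1 in 5. Without scrambled 12 hours replicate 3 the class held 0 genes, and without siOGT 24 hours replicate 2 it held 11. Within the first array set alone 11 genes moved alike, and within the second 0. For the other genes of the compound without a called difference (1456 with these 6), the siRNA effect was not called, and a missed threshold in the difference does not show that both agents acted alike.

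**Figure D5:**
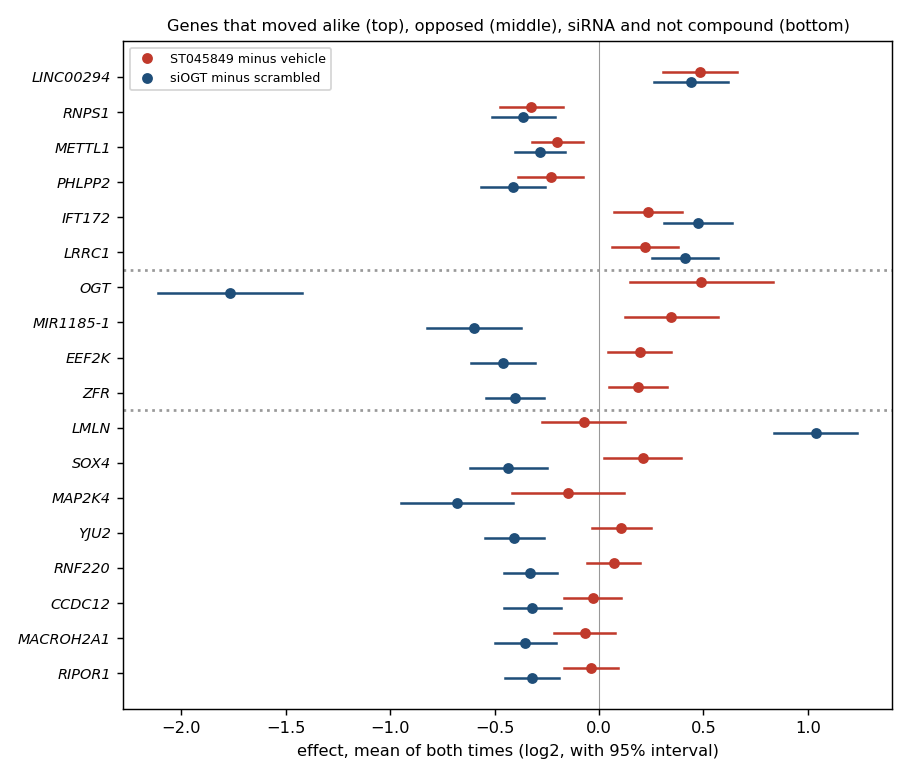
Effects of ST045849 (red) and siOGT (blue) on the log2 scale, averaged over both times, with 95% intervals, for the 6 genes that moved alike, the 4 with opposite effects and the 8 called with siOGT and in the difference but not with ST045849. Both points lie on one side of 0 in the top block, on opposite sides in the middle block, and OGT (-1.77) and LMLN (1.04) have the siOGT effects farthest from 0.

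Opposite effects were called in 4 genes (0.0387%), OGT among them. The class held 1 gene with median scaling, which was none of the 4, 12 without background correction or with array weights, and 31 with array sets in the model. In the fits with 1 array left out OGT stayed in 20 of 24, MIR1185-1 in 18, ZFR in 16 and EEF2K in 8. EEF2K, the kinase that slows translation elongation, rose by 0.19 with ST045849 (adjusted p = 0.0455) and fell with siOGT (-0.46, adjusted p = 0.0105). Its levels ran from 8.12 to 8.44 with vehicle, 8.27 to 8.74 with ST045849, 8.38 to 8.59 with scrambled siRNA and 7.81 to 8.21 with siOGT. The siOGT arrays lay below both the scrambled and the ST045849 arrays, and the ST045849 arrays overlapped with vehicle. Against vehicle the siOGT effect on EEF2K was -0.27 (adjusted p = 0.0872). ZFR, a zinc finger RNA-binding protein, rose by 0.19 (adjusted p = 0.0343) and fell with siOGT (-0.40, adjusted p = 0.0105). The probe annotated to MIR1185-1 rose by 0.35 and fell with siOGT (-0.60). It reads total RNA at the annotated locus, and no mature microRNA is reported here.

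The siRNA moved 8 genes (0.0773%) for which the difference was called and the compound effect was not. With median scaling the class held 2 genes, without background correction 17 and with array sets 21. LMLN, a leishmanolysin-like metallopeptidase, had the second largest siOGT effect, 1.04 (adjusted p = 3.77e-06), with a difference of -1.11 ± 0.14 (adjusted p = 1.52e-05). Its levels ran from 5.98 to 6.08 with vehicle, 5.79 to 6.10 with ST045849, 4.69 to 5.89 with scrambled siRNA and 6.13 to 6.53 with siOGT. The scrambled arrays stood low, LMLN was detected on 2 of 6 of them (without background correction its difference was -0.38), and scrambled siRNA against vehicle gave -0.77 (adjusted p = 0.000962). The siOGT arrays against vehicle gave 0.27 (adjusted p = 0.206). MAP2K4, a kinase upstream of JNK, fell with siOGT (-0.68, adjusted p = 0.0268), and siOGT against vehicle gave -0.81 (adjusted p = 0.0040). Its siOGT arrays ran from 7.58 to 8.45 and the scrambled arrays from 8.40 to 8.95, which overlapped. The difference of MAP2K4 was 0.53 ± 0.18 (adjusted p = 0.0437) and lost its call in 18 of the 24 fits with 1 array left out, whereas a second probe gave 0.87 (adjusted p = 0.00019).

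The transcription factor SOX4 fell with siOGT (-0.43) with 0.21 with ST045849 (adjusted p = 0.0789), a difference of 0.64 ± 0.13. The splicing factors YJU2 (-0.41) and CCDC12 (-0.32), the ubiquitin ligase RNF220 (-0.33), the histone variant MACROH2A1 (-0.35) and RIPOR1, an inhibitor of RhoA (-0.32), also fell with siOGT. A dimmer MACROH2A1 probe gave a difference of -0.33, opposite in sign to the 0.28 of the main probe. In the fits with 1 array left out, LMLN and YJU2 stayed in the group in 24 of 24, RNF220 in 18, RIPOR1 in 15, MAP2K4 in 6, SOX4 in 5, MACROH2A1 in 3 and CCDC12 in 2. With vehicle in place of scrambled siRNA as the control, 66 genes were called with siOGT, but of the 20 called against scrambled siRNA 12 were not. Those 12 include 6 of these 8 genes, among them YJU2 (-0.17, adjusted p = 0.26), SOX4 (-0.37, adjusted p = 0.0551) and RNF220 (-0.25, adjusted p = 0.0656). The difference of effects equals ST045849 against siOGT plus scrambled siRNA against vehicle, so a gap between the controls enters it in full. Scrambled siRNA against vehicle was called in 10 genes higher (0.0967%) and 6 lower (0.058%), together 0.155%, and at an unadjusted p under 0.05 in 10.4%.

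The difference was already present at 12 hours. It was called in 207 genes at 12 hours (2%), 130 higher (1.26%) and 77 lower (0.744%), and in 1662 at 24 hours (16.1%), 998 higher (9.65%) and 664 lower (6.42%). At an unadjusted p under 0.05 the shares were 16% and 31.2%. Of the 207 genes 172 were called at 24 hours with the same sign. The 12 hour difference of DDIT3 was 2.24 (adjusted p = 7.03e-05) and its 24 hour difference 2.45 (adjusted p = 1.80e-05), and CDC25A by -1.30 and -1.64. NDC80 stood at -1.0 (adjusted p = 0.196) and -1.68 (adjusted p = 0.0068), and OGA at 1.36 (adjusted p = 0.102) and 1.81 (adjusted p = 0.0075). The change from 12 to 24 hours itself was called in 0 genes by limma, with 732 at an unadjusted p under 0.05 (7.08%). Each group holds 2 arrays of the first set at 24 hours and 1 at 12 hours, so the counts at both times mix time with set. When the model held a term for the array set within each treatment, the count at 12 hours was 772 and at 24 hours 1652.

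Within each array set nearly all genes of the compound, which were chosen on the 24 arrays together, had one direction. Of the 1835 genes all 1835 had the sign of the main result in the first set alone and 1833 in the second, with 1409 and 153 called there. The whole difference was called for 2340 genes in the first set (1272 higher, 1068 lower) and 171 in the second (109 higher, 62 lower), with 12 arrays each. TRIB3 was at 2.09 and 1.81 (adjusted p = 3.64e-06 and 7.34e-05) and CDC25A at -1.54 and -1.40 (adjusted p = 0.000187 and 0.0049), close in both sets. NIBAN1 was at 3.42 and 1.81, DDIAS at -2.1 and -0.99 and SERPINA3 at 2.53 and 1.07, each farther from 0 in the first. The siOGT effect on OGT was also farther from 0 in that set, at -2.33 and -1.21 (adjusted p = 3.99e-07 and 0.0380), and its siOGT arrays stood at 6.60 to 6.76 there and at 7.32 to 7.82 in the other set. Several genes named above were called in the first set and not in the second. GFPT1 stood at 1.05 and 0.33 (adjusted p = 0.314 in the second), ISG20 at 1.77 and 0.44 (0.166), MAD2L1 at -1.43 and -0.55 (0.108) and ACAT2 at -1.34 and -0.49 (0.241). CHORDC1 stood at -1.15 and -0.27 (0.507), DUSP1 at 1.15 and 0.30 (0.653) and NQO1 at 0.73 and 0.17 (0.694). The part of the array set in these gaps was not tested.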

How the data were processed

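Total RNA of LNCaP cells was hybridised to 24 Illumina arrays. The deposited tables hold an intensity per probe and array and a detection p-value, made with GenomeStudio 2011.1 per the submitters' processing notes. The authors' non-normalized intensity was used here, and the authors' processed values were an alternative. The sources used here do not name the slides.

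In R 4.3.3 with limma 3.58.1 and version 1.17.8 of data.table, neqc corrected the background from the detection p-values (offset 16), quantile-normalized and took log2. A probe was kept (17633 of 47323) when 3 or more arrays had its detection p below 0.01. Of all probes 30113 had 1 gene symbol, 8 several and 17202 none; 39 symbols had no match in RefSeq and kept the annotation's name. Where a gene had several kept probes (2633 genes) the one with the highest mean was used, which left 10345 genes. One model of the 8 group means gave every contrast, with moderated tests adjusted over all genes per contrast by Benjamini-Hochberg and a threshold of 0.05. A gene not detected on any array of a group was given a fold as a lower bound, from the lowest signal among detected probes. The number of arrays limits the precision: in simulated data at this size, with 10345 genes, 61% of 100 genes changed 1.5-fold and 94% of 100 changed 2-fold in the difference were recovered, 0 with the wrong sign. Of all 164 calls there 9 were false. The simulated noise was independent and held no array sets, and fewer genes were changed than were called here, so these shares do not carry over directly.

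Named genes were fixed by rule: OGT, OGA, MYC, KLK3, CDKN1A, DDIT3, TRIB3, CDC25A and HSPA5, the 12 largest differences each way with 6 of one sign, up to 10 genes that moved alike, up to 8 each with opposite effects or with the siRNA alone, and the 4 smallest p-values of each of 25 lists. The comparison, members and lists were chosen with earlier results of these data known. Alternatives were another background correction, scaling, filters, probe rules, a replicate block, array sets, array weights, a fold minimum and leaving out each array. Probes with no single gene (4010 kept) were left out of the comparison.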

Additional observations from a re-analysis of the deposited data

How the results depend on the processing

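Further probes gave a difference opposite in sign to the main probe for MACROH2A1 (-0.33 against 0.28), ZMAT3 (0.20 against -0.52) and RPL37 (-0.051 against 0.41). The fits with a replicate block or array sets left the estimates as they were, and the fit of all kept probes was read at the main probe. In those settings the direction was fixed. Under the alternatives run every called difference among the named genes kept its direction. Of 107 such genes, 29 lost their call with median scaling, 8 without the detection filter, 4 with all kept probes, 2 with the replicate block, 1 each with array sets and array weights, and 11 in at least 1 fit with an array left out (MACROH2A1 in 21, MAP2K4 and SDHC in 18, DROSHA in 16, PSMA3 in 15, MT1G in 12, TRA2B in 11, RPL37 in 9, SRSF7 and CCDC12 in 7 and RIPOR1 in 1). Their size moved over 1.5 times for 30 without background correction and for 31 with median scaling. The counts of genes with opposite effects (4 in the report) ran from 1 to 31 and of genes with the siRNA alone (8) from 2 to 21. Genes with a siOGT effect numbered 20, 49 without background correction and with the authors' processed values, 8 with median scaling, 87 with array sets in the model, 40 with array weights, 5 with a fold of 1.5 or more, 53 and 1 within the first and second array set, 66 with vehicle as the control, and 5 to 53 with 1 array left out (5 without scrambled 12 hours replicate 3, 6, 8 and 11 without siOGT 12 hours replicate 3, 24 hours replicate 1 and 24 hours replicate 3, 9, 10 and 46 without scrambled 24 hours replicate 1, 12 hours replicate 2 and 24 hours replicate 3, and 53 without siOGT 24 hours replicate 2). Genes that moved alike numbered 13 without background correction and with processed values, 2 with median scaling, 22 with array sets, 12 with weights, 0 with the fold minimum, 11 and 0 within the sets, and 0 to 11 with 1 array left out. They numbered 1 without siOGT 12 hours replicate 3, 2 without siOGT 24 hours replicate 1 or 3, scrambled 24 hours replicate 1 or vehicle 24 hours replicate 2, and 3 without vehicle 12 hours replicate 1, 2 or 3, vehicle 24 hours replicate 1, ST045849 12 hours replicate 2 or scrambled 12 hours replicate 2. The difference at 12 hours was called in 326 genes without background correction and with processed values, 57 with median scaling, 772 with array sets, and 98 to 256 with 1 array left out (98, 113, 121, 123 and 133 without ST045849 replicate 3, vehicle replicate 3, scrambled replicates 2 and 1 and siOGT replicate 3), and at 24 hours in 1062 to 1746 (1062 without scrambled replicate 2). With the fold minimum the difference over both times, the compound effect and the genes of the compound and not of the siRNA numbered 839, 660 and 721, and within the second set, which holds 12 arrays, 171, 645 and 150. Without the controls, ST045849 against siOGT was called in 3585 genes. The change between times was called in 1 gene without the detection filter. The cause of these shifts was not tested beyond the fewer arrays or genes that an alternative leaves.

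Among differences that were not called, the sign turned with median scaling for MYC (-0.11), CDKN1A (-0.044), HSPA5 (-0.085), LINC00294 (-0.15), RNPS1 (-0.16), METTL1 (-0.14), NDUFB8 (-0.0064), DDC (-0.035) and SYT4 (-0.19), and with 1 array left out for CDKN1A (-0.00080 to 0.21), LINC00294 (-0.012 to 0.11), RNPS1 (-0.028 to 0.090) and SYT4 (-0.033 to 0.095). Same-numbered arrays of a time did not meet the rule for pairs: deviations from the group means correlated over 0.1 in 12 of 36 pairs (median 0.076), against 3 of 72 (median -0.039) for different numbers, a hint of pairing in the data and not in the design. With the replicate number as a block the difference was called in 2401 genes, 272 at 12 hours and 1904 at 24 hours, the siOGT effect in 17, and 6 genes moved alike. Of the 1835 genes of the compound, 1008 were in that class with median scaling.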

Other observations

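Probes that the annotation pairs with no single gene were also fitted in a model over all kept probes. Of 4010 such probes, 236 had a higher and 223 a lower difference of effects (11.4%), against 17.9% of kept probes with 1 gene. Their genes are not named here.

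Genes called with siOGT and in neither other group were RNF32, which rose by 0.58 with a difference of -0.32 (adjusted p = 0.143), and the small nucleolar RNA gene SNORA73B, which fell by 0.65 with a difference of 0.44 (adjusted p = 0.0588), both with limma. They were named after their values were seen. Among the 1835 genes of the compound and not of the siRNA, 19 were detected on 0 of the 12 siRNA arrays.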
